A study of Mus musculus with 8 samples.

Results

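The 9 genes described here encode regulators and surface or secreted products of plasma cells: Prdm1, Irf4, Xbp1, Zbtb20, Ell2, Sdc1, Jchain, Slamf7 and Cd28. They were chosen by name as a set, 9 of 21887 protein-coding genes, and were followed through every deposited peak and differential region in a window from 2 kb before to 2 kb after each gene span (GRCm38), with 100 kb on each side of the span added for Prdm1 and Irf4. The study mapped 5-hydroxymethylcytosine (5hmC) by immunoprecipitating hydroxymethylated DNA and sequencing it (hMeDIP-seq). The DNA came from germinal center B cells of the spleen of C57BL/6 mice that were either TET2 wild type (WT) or TET2 knockout (KO), with 2 immunoprecipitated libraries per genotype, numbered replicates 2 and 3, and 4 input libraries that are not analysed here as files of their own. The age and sex of the mice, the way TET2 was deleted, any Cre driver, immunisation, the sorting gate, and whether DNA of several mice was pooled are not given in the sources used here. The labels do not say that libraries of 1 genotype came from separate mice, so the p-values reflect spread among these libraries alone, and that spread may be technical. Where 4 values stand in a row without names, the order is KO replicate 2 and 3, then WT replicate 2 and 3.

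Plasma cell differentiation turns a B cell into an antibody-secreting cell. Irf4, an interferon regulatory factor whose level helps to decide between germinal center and plasma cell fate, and Prdm1, which encodes the repressor Blimp-1 that shuts off the B cell program, lie at the top of the pathway. Xbp1, Zbtb20 and Ell2 serve secretion, survival and the switch to secretory immunoglobulin mRNA, and the remaining genes encode products found on or released by plasma cells. TET2 is an enzyme that oxidises 5-methylcytosine to 5hmC, a step towards loss of DNA methylation.

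The 4 immunoprecipitated libraries hold between 270548 and 300954 peaks, which cover 110.6 to 139.3 Mb. The depth in reads is not listed. The authors give for each peak a fold enrichment at its summit over background, and the median fold runs from 4.38 in KO replicate 3 to 5.51 in WT replicate 2. From fold and p-value the read pileup at the summit could be recovered as a whole number for at least 99.9974% of peaks of each library. At the most frequent background of a library (8.66 to 11.69 reads), the lowest fold called was 2.13 to 2.38 and the lowest pileup 22 to 26 reads, so a site without a peak may still carry signal below that floor. The most frequent background was lowest in WT replicate 2 (8.66 reads, against 10.87 to 11.69 in the other libraries). An equal pileup therefore gives a higher fold there. KO replicate 3 had the narrowest peaks (median 347 bases against 406 to 431 in the other libraries) and the smallest covered length. Merging the peaks of all 4 libraries gave 356368 regions, called union regions here. Because whole libraries differ in covered length, covered bases were scaled so that each library has the same sum over all windows, and unscaled bases are given where they matter. Without that scaling the median log2 change of all windows, KO minus WT, moves from 0.02 to -0.10. Peaks show where 5hmC is enriched and not whether a gene is expressed, so they check neither the cell type nor the genotype. A lower value in bulk DNA can mean fewer cells that carry the mark or less mark per cell, which cannot be told apart.

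Of the promoters that could be examined, 1 listed start per gene, only that of Ell2 reached into a peak. The listed starts of Prdm1, Zbtb20 and Slamf7 lie inside their spans, so any start at the outer end was not examined. Union regions lay across the outer upstream end of Zbtb20 (chr16:42875582-42875956, peaks in 3 libraries) and of Slamf7 (chr1:171653021-171653595, peaks in all 4). RefSeq promoter sequence (GRCm38.p6, 250 bases before to 50 bases after the listed start) was matched for 8 of the 9 genes, all except Cd28. The number of CpG sites, the dinucleotide at which TET2 acts, in these 300 bases was 23 for Ell2, 20 for Prdm1, 14 for Sdc1, 11 for Irf4, 10 for Xbp1 and 3 each for Zbtb20, Jchain and Slamf7, beside a median of 13 over 21263 protein-coding promoters. A union region touched 8.22% of those promoters, 7.25% of the promoters with at least the median number of CpG sites and 9.23% of the others. The 250 bases before the listed start are shown for Ell2, the promoter under a peak, and for Prdm1 and Irf4, the 2 upper regulators, whose promoters held CpG sites but no peak. Capitals mark CpG sites. The sequences lie at chr13:75707234-75707483 (plus strand), chr10:44458749-44458998 (minus strand) and chr13:30748983-30749232 (plus strand).
Ell2: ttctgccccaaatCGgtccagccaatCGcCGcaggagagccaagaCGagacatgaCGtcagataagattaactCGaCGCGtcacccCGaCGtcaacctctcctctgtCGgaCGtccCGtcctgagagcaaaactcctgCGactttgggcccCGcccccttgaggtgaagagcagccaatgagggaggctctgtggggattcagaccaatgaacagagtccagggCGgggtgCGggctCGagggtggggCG
Prdm1: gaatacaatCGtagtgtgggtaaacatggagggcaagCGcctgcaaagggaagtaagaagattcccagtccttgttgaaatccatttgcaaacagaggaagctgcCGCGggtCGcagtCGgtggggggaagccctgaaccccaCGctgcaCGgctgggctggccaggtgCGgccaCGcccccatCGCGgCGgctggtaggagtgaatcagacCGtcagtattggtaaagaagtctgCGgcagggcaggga
Irf4: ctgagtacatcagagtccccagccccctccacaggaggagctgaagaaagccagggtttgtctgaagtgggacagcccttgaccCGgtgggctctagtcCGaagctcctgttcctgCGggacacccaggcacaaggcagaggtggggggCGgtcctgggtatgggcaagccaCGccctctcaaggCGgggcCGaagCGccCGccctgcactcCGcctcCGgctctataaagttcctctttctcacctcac
The printed stretches hold 19 CpG sites for Ell2, 15 for Prdm1 and 11 for Irf4. In Ell2 the peak ends inside the stretch: the peak of KO replicate 2 reached over its first 143 bases, with 14 CpG sites, that of KO replicate 3 over 36 bases (3 CpG sites), that of WT replicate 2 over 72 (5 CpG sites) and that of WT replicate 3 over 60 (5 CpG sites). The nearest union region lay 8200 bases from the Prdm1 promoter and 775 bases from that of Irf4.

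The windows of the 9 genes held 140 union regions in all, 92 of them along Zbtb20, the longest gene. The KO libraries had a peak at 98 and 92 of the 140, and the WT libraries at 100 and 105. All 4 libraries shared a peak at 64 regions, which is 45.7% beside 59.9% of all union regions. Outside Zbtb20 the shared count was 21 of 48 (43.8%). Peaks were called in both KO libraries and neither WT library at 4 regions (2.86%, against 1.32% of all union regions), 2 of them in Prdm1 and 2 in Ell2. The opposite pattern, both WT libraries and no KO library, occurred at 3 regions (2.14%, against 1.92% of all), all in Zbtb20.

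**Figure D1:**
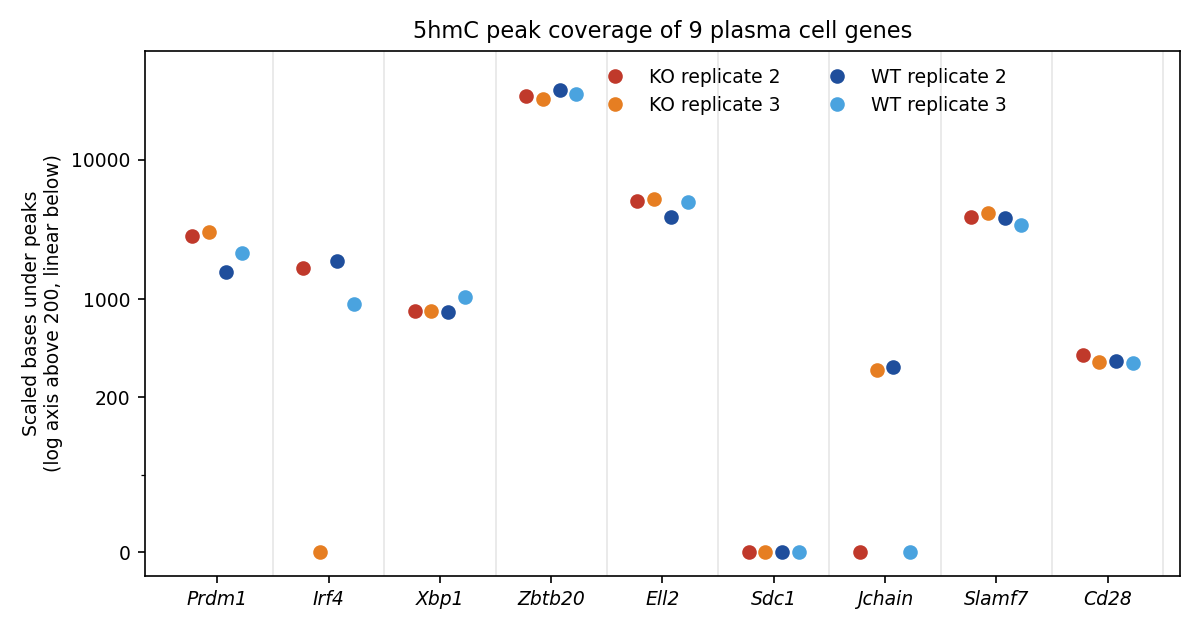
Scaled bases under 5hmC peaks in the window of each gene (vertical axis, logarithmic above 200 and linear below), 1 point per library. In Prdm1 both KO points (2837 and 3043) lie above both WT points (1566 and 2147), Irf4 has no peak in KO replicate 3, and Sdc1 has none in any library.

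The share of the window under peaks, from unscaled bases averaged over the 4 libraries, ordered the genes from Slamf7 (15.4%) through Xbp1 (9.43%), Ell2 (6.94%), Irf4 (5.36%), Zbtb20 (3.83%), Prdm1 (2.49%), Jchain (1.23%) and Cd28 (1.19%) to Sdc1, which had none. The middle of that order, 3.83%, is close to the median over all protein-coding genes, with or without a union region, 3.93%. The ranges over single libraries were taken from scaled bases and so differ slightly in measure from these averages. Neighbours whose libraries overlapped were Ell2 and Irf4, Irf4 and Zbtb20, Prdm1 and Jchain, and Jchain and Cd28. The ranges of the remaining neighbours did not overlap: Slamf7 ran from 13.8 to 16.8% over the libraries, and Xbp1 from 8.67 to 11.1%. Prdm1 ran from 1.64 to 3.19%.

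Of the 9 genes, 6 had enough covered bases for a test between genotypes (a mean of at least 500 scaled bases), and Sdc1, Jchain and Cd28 did not. With limma and Benjamini-Hochberg adjustment none of the 6 passed an adjusted p of 0.05, and over the whole series 0 of 14001 gene windows (0%) did. Without adjustment 1 of the 6 (Prdm1) and 568 of the 14001 windows were under 0.05. The log2 change, KO minus WT, was above 0 for Prdm1, Ell2 and Slamf7 and below 0 for Irf4, Xbp1 and Zbtb20, with a median of 0.01 over the 6 and 0.02 over all windows tested. Nor did any single union region pass, 0 of 299322 (0%): 111 regions of the 9 windows were tested, 9 (8.11%) had an unadjusted p under 0.05 beside 15281 (5.11%) of all regions, and the smallest adjusted p was 0.525 in both.

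The authors' deposited tables list regions enriched in 1 genotype over the other, 24645 in WT and 50 in KO for the whole genome. Within the 9 windows the authors' deposited table for WT holds 14 regions, called WT-higher regions here, and that for KO holds 0. Zbtb20 had 8 of them, Slamf7 3, Irf4 2 and Prdm1 1. Of the 8 genes with a union region, 4 (50%) had a WT-higher region, beside 28.3% of the genes of the series that have a union region. Counted by union region, 12 of 140 (8.57%, Wilson 95% interval 4.97 to 14.4%) held one, beside 7.26% of all union regions in gene windows, which lies inside that interval. That interval covers counting error only and takes the regions as independent. Zbtb20 alone holds 92 of the 140 regions and 8 of the 12, so the interval does not measure spread among the 9 genes. The scores in the authors' deposited table ran from 3.56 to 6.75 for these 14, with a median of 4.41 beside 4.77 for the series. Of the 14, 9 overlapped a peak in all 4 libraries (76.1% of WT-higher regions of the series do), 2 a peak in 3 libraries, 1 a peak in 1 library and 2 no peak at all (4.96% in the series). A WT-higher region therefore mostly sat on a peak that both genotypes shared.

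Prdm1 was the one gene of the 9 with an unadjusted p under 0.05, and both of its KO libraries had more bases under peaks than both WT libraries. Its span is chr10:44437174-44528558 on the minus strand, 91.4 kb, with the listed start at 44458748, so that most of the span lies before that start. KO replicate 2 had 8 peaks and 2837 scaled bases (3030 unscaled), and KO replicate 3 had 8 peaks and 3043 scaled bases (2587 unscaled). WT replicate 2 had 4 peaks and 1566 scaled bases (1562 unscaled), and WT replicate 3 had 6 peaks and 2147 scaled bases (2328 unscaled). Both KO libraries lay above both WT libraries, a separation that 18% of all gene windows tested show. The mean was 2940 scaled bases in KO and 1860 in WT, a log2 change of 0.62 ± 0.18 (SE, limma with Benjamini-Hochberg adjusted p = 0.992). When only peaks of at least 5-fold enrichment were counted, the direction turned to a log2 change of -0.29.

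Prdm1 held 11 union regions, 9 before the listed start and 2 after it. A peak was shared by all 4 libraries at 4 regions, all before the start. The strongest of them, chr10:44482288-44482750, 23.8 kb before the start, had folds of 5.82 and 5.73 in the KO libraries and 8.28 and 6.15 in the WT libraries, on summit pileups of 72, 67, 79 and 77 reads. The other 7 regions had folds of at most 4.38 and peaks in only 1 or 2 libraries. At chr10:44511653-44512061, 53.1 kb before the start, only the KO libraries had peaks, with a fold of 4.38 in each on 54 and 51 reads. At chr10:44521377-44521793, 62.8 kb before the start, the KO folds were 2.89 and 2.70 on 38 and 31 reads, and neither WT library had a peak. The fitted log2 change was 1.49 at both sites (SE 0.27 and 0.28), with a limma adjusted p of 0.525 for each over all regions. Both sites were singled out for this pattern after their values were seen. Because no WT base was covered there, the size of the change follows from KO peak width and the pseudocount, the constant added before the logarithm. The fit therefore restates which libraries had a peak and cannot measure how strongly the genotypes differ at these sites. Neither fold reaches 5, so neither site remains when peaks under 5-fold are dropped, and 1 of the 2 remains when each library is reduced to equal numbers of peaks.

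Prdm1 also carried the opposite entry. The authors' deposited table lists chr10:44487173-44487507, 28.6 kb before the start, as WT-higher with a score of 3.89, below the median score of the table. No library had a peak there, and the nearest union region was 4422 bases away. Peak calls and the differential table point in opposite directions at different places of the Prdm1 window.

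Beyond the Prdm1 window, the 100 kb on each side of the span held 45 union regions, 28 of them with a peak in all 4 libraries. The scaled bases in both flanks together were 16020 and 15590 for KO and 16052 and 14933 for WT. These values overlapped between genotypes, with a log2 change of 0.03 ± 0.09 (SE, limma adjusted p = 0.999), where 0 of 21770 flanks (0%) passed and 1054 had an unadjusted p under 0.05. No peak of the flank before the gene exceeded 6.72-fold, whereas past its end, towards the autophagy gene Atg5, folds reached 13.6. Of the 45 regions 3 had peaks in both WT libraries and in no KO library, a pattern of 1.92% of all union regions. The reverse, found at 1.32% of all union regions, occurred at 0 of the 45. Counts this small are a description only.

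The authors' deposited table holds 4 WT-higher regions in the Prdm1 flanks, on 4 of the 45 union regions (8.89%). On the Atg5 side these are chr10:44346961-44347220 with a score of 5.90 and chr10:44345082-44345403 with a score of 3.49 in the authors' deposited table, both within the Atg5 span. The second of these sits on a peak of 10.8-fold and 8.60-fold enrichment in the KO libraries and 11.5-fold and 10.8-fold in the WT libraries. On the upstream side the authors' deposited table lists chr10:44601660-44602027 (score 5.49, 143.1 kb before the start) and chr10:44536501-44536833 (score 3.79, 77.9 kb before the start). At both upstream sites the 2 WT libraries had a peak and the 2 KO libraries had none. The WT folds were 4.66 and 3.39 at the farther site and 3.93 and 4.02 at the nearer one. The limma log2 changes of these union regions were -1.48 ± 0.32 and -1.50 ± 0.28 (SE, adjusted p = 0.525 for each). Because no KO base was covered there, their size follows from WT peak width and the pseudocount. The fit cannot measure how strongly the genotypes differ at these sites. The third region with peaks in both WT libraries only, chr10:44558062-44558423, had the highest folds of the 3 (4.97 and 4.41), and no WT-higher region of the authors' deposited table overlaps it.

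**Figure D2:**
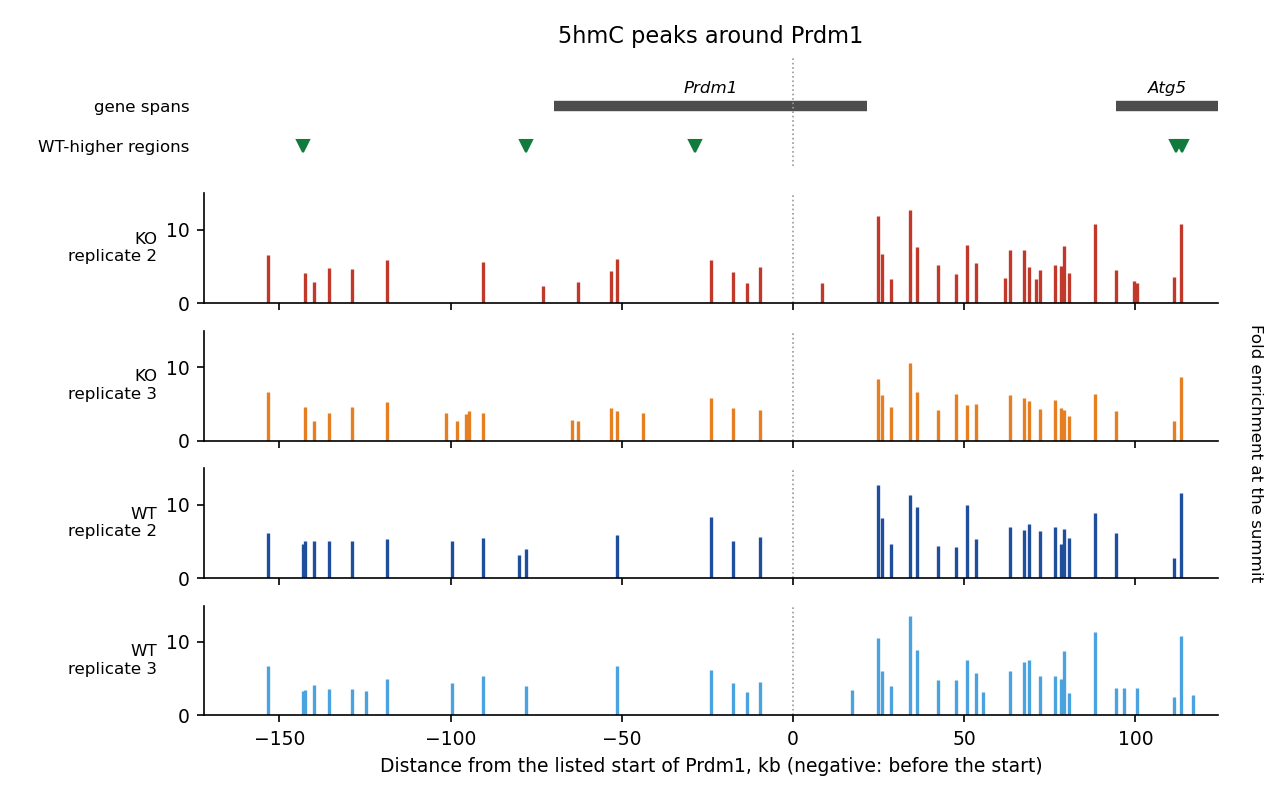
5hmC peaks around Prdm1 by distance from its listed start in kb, with 1 panel per library (bars: the authors' fold enrichment at the summit), gene spans and WT-higher regions (triangles) above. The 4 shared peaks of the gene lie before the start, and the bars at -53.1 and -62.8 kb appear in the KO panels only, while those at -77.9 and -143.1 kb appear in the WT panels only.

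Irf4 carried weak and scattered peaks, with no region common to the 4 libraries. Its span is chr13:30749233-30766981 on the plus strand, 17.7 kb. KO replicate 2 had 4 peaks over 1777 bases, KO replicate 3 had no peak, WT replicate 2 had 5 peaks over 1884 bases and WT replicate 3 had 3 peaks over 999 bases. Scaled, these are 1664, 0, 1889 and 921 bases, so that KO replicate 2 lay between the WT libraries and KO replicate 3 below both. The log2 change was -1.33 ± 1.08 (SE, limma adjusted p = 0.992). KO replicate 3 decided its direction: without that library the log2 change was 0.29, and without KO replicate 2 it was -2.91. Because KO replicate 3 had 0 bases, the size also rests on the pseudocount, and it was -2.23 with 50 bases in place of 200.

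The 7 union regions of Irf4 had folds of at most 4.06. That highest fold belonged to KO replicate 2 at chr13:30753527-30753888, 4.5 kb after the start, where no other library had a peak. The authors' deposited table lists chr13:30753623-30753870 inside this same region as WT-higher with a score of 4.08, although the peak there was a KO peak. The other entry for Irf4 in the authors' deposited table, chr13:30758978-30759370 with a score of 3.66, lies 9.9 kb after the start. It overlapped peaks of 3.35-fold in KO replicate 2, 3.55-fold in WT replicate 2 and 3.23-fold in WT replicate 3, and no peak in KO replicate 3. Both entries score below the table's median of 4.77.

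In the 100 kb flanks of Irf4 both KO libraries had fewer bases under peaks than both WT libraries. The KO libraries had 13038 and 12441 scaled bases, against 16829 and 13381 in the WT libraries. The gap to WT replicate 3 was narrow, and 13.5% of all flanks tested show the same separation. The log2 change was -0.23 ± 0.10 (SE, limma adjusted p = 0.979). It was -0.07 without WT replicate 2 and -0.40 without WT replicate 3. In the nearest 50 kb on each side it was -0.36. The flanks hold the neighbouring genes Dusp22, a dual-specificity phosphatase gene, and Exoc2, which encodes a subunit of the exocyst.

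Of 45 union regions in the Irf4 flanks, 21 had a peak in all 4 libraries, 1 in both KO libraries only and 2 in both WT libraries only. Over all union regions these patterns make up 59.9%, 1.32% and 1.92%. WT-higher regions of the authors' deposited table lay on 5 of the 45 (11.1%). Upstream of Irf4, between Dusp22 and the start, the authors' deposited table gives chr13:30733653-30733931 (score 5.15), chr13:30712317-30712609 (score 4.80) and chr13:30732905-30733105 (score 4.38). The first and the third lie 15.4 and 16.2 kb before the start, in a row of peaks that all 4 libraries shared. At the union region around the third, chr13:30732866-30733442, the peaks covered 341 and 309 bases in the KO libraries and 537 and 561 bases in the WT libraries, a log2 change of -0.45 ± 0.07 (SE, limma adjusted p = 0.525). Its summit folds were 2.79 and 3.62 in KO and 4.35 and 3.70 in WT. Downstream, between Irf4 and Exoc2, the authors' deposited table gives chr13:30785768-30786046 (score 5.39) and chr13:30780356-30780575 (score 4.56), both on peaks that were present in every library. The second of these had folds of 5.98 and 4.72 in the KO libraries and 8.08 and 7.88 in the WT libraries. The summit pileups there were 74 and 55 reads in KO and 77 and 99 in WT.

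**Figure D3:**
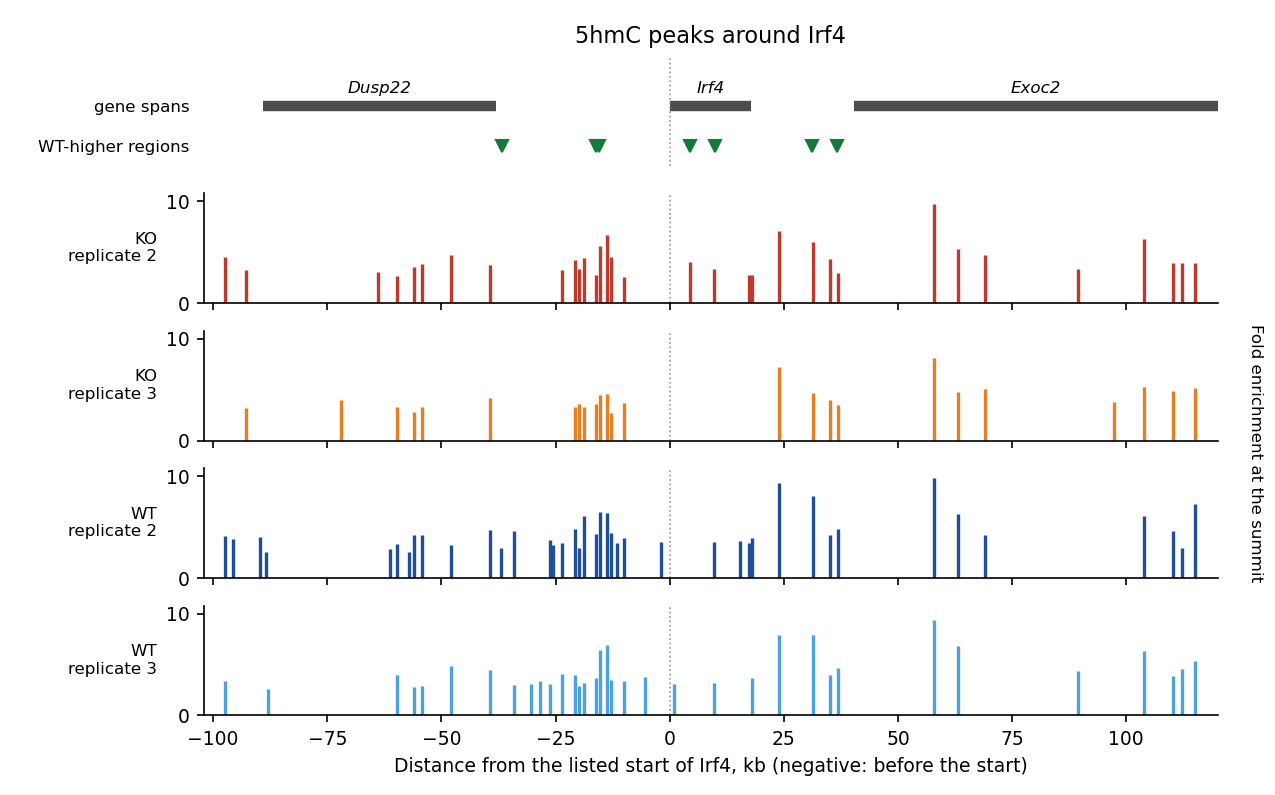
5hmC peaks around Irf4 by distance from its listed start in kb, with 1 panel per library (bars: the authors' fold enrichment at the summit), gene spans and WT-higher regions (triangles) above. The gene itself holds few and low bars and none in KO replicate 3, whereas the intervals on both sides hold peaks of all 4 libraries together with 5 of the 7 WT-higher regions.

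Xbp1, the transcription factor of the unfolded protein response that expands the secretory machinery, had the same 2 peaks in every library. Its span is chr11:5520641-5525993, 5.35 kb, on the plus strand. The bases under peaks were 884, 704, 809 and 1130, and after scaling 828, 828, 811 and 1042. The groups overlapped, with a log2 change of -0.12 ± 0.20 (SE, limma adjusted p = 0.996). The stronger region, chr11:5519470-5520000, centred 0.9 kb before the start, had folds of 6.21 and 5.11 in KO and 5.80 and 5.20 in WT. Its nearest edge is 391 bases from the 300-base promoter. The weaker region, chr11:5522248-5522676, lay 1.8 kb after the start, and a peak of WT replicate 3 alone at 1.8 kb before the start made up the rest. The sign of the log2 change turned to 0.34 with equal numbers of peaks and to 0.02 without WT replicate 3.

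Zbtb20, a zinc finger repressor needed for long-lived plasma cells, gave the most regions because its span is long, chr16:42875689-43634392, 759 kb on the plus strand with the listed start at 43247284. KO replicate 2 had 65 peaks over 28433 scaled bases and KO replicate 3 had 59 over 27326. WT replicate 2 had 70 peaks over 31434 scaled bases and WT replicate 3 had 72 over 29470. Both KO libraries were below both WT libraries, a separation found in 13.6% of all gene windows tested. The log2 change was small, -0.13 ± 0.06 (SE, limma adjusted p = 0.992), and it turned to 0.24 when only peaks of at least 5-fold enrichment were counted.

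Of the 92 regions of Zbtb20, 40 lay before the listed start and 52 after it, and 43 had a peak in all 4 libraries, 18 of them before the start. Over these 43 shared regions the median folds were 5.74 and 5.19 in the KO and 6.11 and 5.28 in the WT libraries. The 3 regions with peaks in both WT libraries only were chr16:43050936-43051273, chr16:43500019-43500490 and chr16:43585189-43585595. Their WT folds were 4.24 and 3.39, 3.21 and 2.76, and 4.87 and 4.34. None of the 3 overlapped a WT-higher region.

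The 8 WT-higher regions of Zbtb20 instead fell on peaks that KO shared: 7 overlapped a peak in all 4 libraries and 1, chr16:43455111-43455527, a peak in every library except KO replicate 3. One lay 20.6 kb before the listed start and 7 lay after it. Among all 14 regions of the 9 windows, chr16:43504040-43504248, 256.9 kb after the start, ranks first in the authors' deposited table with a score of 6.75. This region sits in the gene's strongest union region, chr16:43502703-43504437, with summit folds of 12.1 and 9.33 in the KO libraries and 13.7 and 13.6 in the WT libraries, on pileups of 169, 121, 139 and 171 reads. Its covered bases gave a log2 change, KO minus WT, of 0.09 ± 0.13 (SE, limma adjusted p = 1). Next by score in the authors' deposited table were chr16:43577594-43577847 (6.01) and chr16:43468386-43468623 (5.86). The first had folds of 5.74 and 4.55 in KO and 7.22 and 5.20 in WT, and the second had 3.43 and 3.57 in KO and 4.66 and 4.39 in WT. Summit pileups at the first were 71 and 53 reads in KO and 69 and 65 in WT. At the second they were 42 and 43 reads in KO and 44 and 55 in WT.

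**Figure D4:**
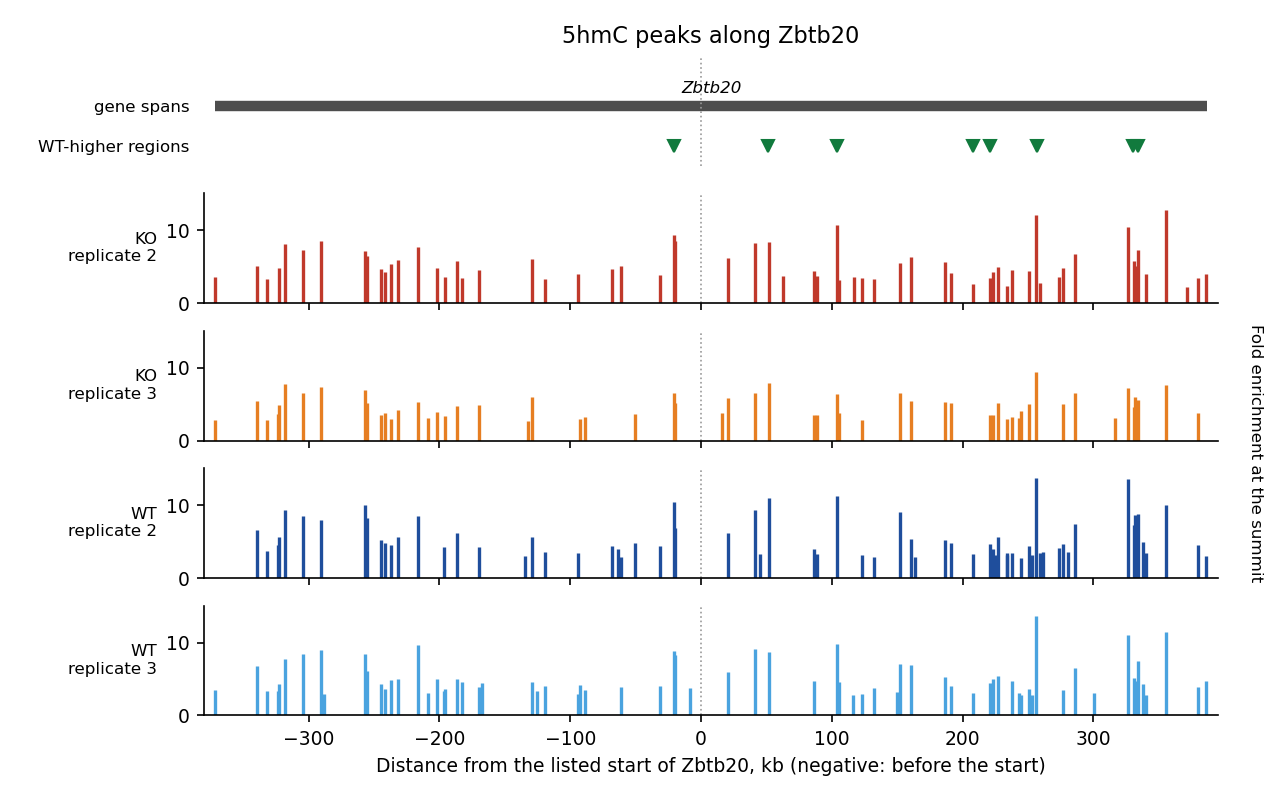
5hmC peaks along Zbtb20 by distance from its listed start in kb, with 1 panel per library (bars: the authors' fold enrichment at the summit), the gene span and the 8 WT-higher regions (triangles) above. The bars repeat from panel to panel, the tallest shared one lies near 256 kb, and 7 of the 8 triangles lie after the start.

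Ell2, the elongation factor that favours secretory over membrane immunoglobulin heavy chain mRNA, had a peak at its promoter in all 4 libraries and no WT-higher region. Its span is chr13:75707484-75772361, 64.9 kb on the plus strand. The KO libraries had 12 and 13 peaks over 5076 and 5263 scaled bases, and the WT libraries 10 and 13 peaks over 3853 and 4957. Both KO libraries lay above both WT libraries, by a small margin over WT replicate 3. Of all gene windows tested, 18% show this separation. The log2 change was 0.23 ± 0.15 (SE, limma adjusted p = 0.992) and was 0.06 without WT replicate 2. Without scaling KO replicate 3 (4474 bases) lay below WT replicate 3 (5376 bases).

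The promoter region of Ell2, chr13:75706877-75707376, is the strongest of its 15 union regions, with folds of 5.42 and 4.13 in KO and 6.73 and 4.79 in WT. The summits lay 366, 381, 350 and 359 bases before the listed start, outside the stretch printed above. The covered bases of this region gave a log2 change of 0.03 ± 0.10 (SE, limma adjusted p = 1). A peak was present in every library at 8 of the 15 regions. At 2 regions, chr13:75732687-75733019 and chr13:75739302-75739736, 25.4 and 32.0 kb after the start, only the KO libraries had peaks. The folds there were 3.11 and 3.54 at the first and 3.51 and 3.33 at the second, with log2 changes of 1.39 ± 0.31 and 1.56 ± 0.26 (SE, limma adjusted p = 0.525 for each). Both regions were singled out for this pattern after their values were seen. With no WT base covered there, the size of these changes follows from KO peak width and the pseudocount. The fit cannot measure how strongly the genotypes differ at these regions.

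Slamf7, a surface receptor of plasma cells, was the most densely marked of the 9 genes. Its span is chr1:171632403-171653037, 20.6 kb on the minus strand with the listed start at 171648999. Of all 21887 protein-coding genes, with or without a union region, 96.2% had a lower share of their window under peaks. The scaled bases were 3877 and 4142 for KO and 3846 and 3409 for WT. The lower KO library lay only just above the higher WT library, and 18% of all gene windows tested have both KO above both WT. Without scaling KO replicate 3 (3521 bases) lay below both WT libraries (3836 and 3697 bases). The log2 change was 0.14 ± 0.12 (SE, limma adjusted p = 0.992), and with peaks of at least 5-fold enrichment it turned to -0.84.

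Of the 9 union regions of Slamf7, 6 had a peak in every library. The highest fold, 8.59, was reached in WT replicate 2 at chr1:171653021-171653595, 4.3 kb before the listed start, where the other libraries had 6.45, 5.39 and 6.86 in the order KO replicate 2, KO replicate 3 and WT replicate 3. The same fold was reached in WT replicate 3 at chr1:171647919-171648463, 0.8 kb after the start, with 5.47 and 4.26 in the KO libraries and 7.87 in WT replicate 2. The authors' deposited table holds 3 WT-higher regions here. The best scored of them (5.07) in the authors' deposited table is chr1:171650514-171650719, 1.6 kb before the start on a broad union region of 1393 bases with folds of 3.97 and 3.75 in KO and 3.70 and 5.99 in WT. The entry of score 4.33 in the authors' deposited table, chr1:171630250-171630472, lies past the end of the gene on a region covered over 592 and 305 bases in KO and 722 and 769 bases in WT (log2 change -0.52 ± 0.18, SE, limma adjusted p = 0.992). The entry of score 4.17 in the authors' deposited table, chr1:171642376-171642578, met no peak in any library, and the nearest union region was 872 bases away. Within the gene the largest coverage difference by p went the other way: chr1:171644915-171645865 was covered over 856 and 724 bases in KO and 567 and 568 bases in WT, a log2 change of 0.44 ± 0.06 (SE, limma adjusted p = 0.525). That region was named after its values were seen.

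**Figure D5:**
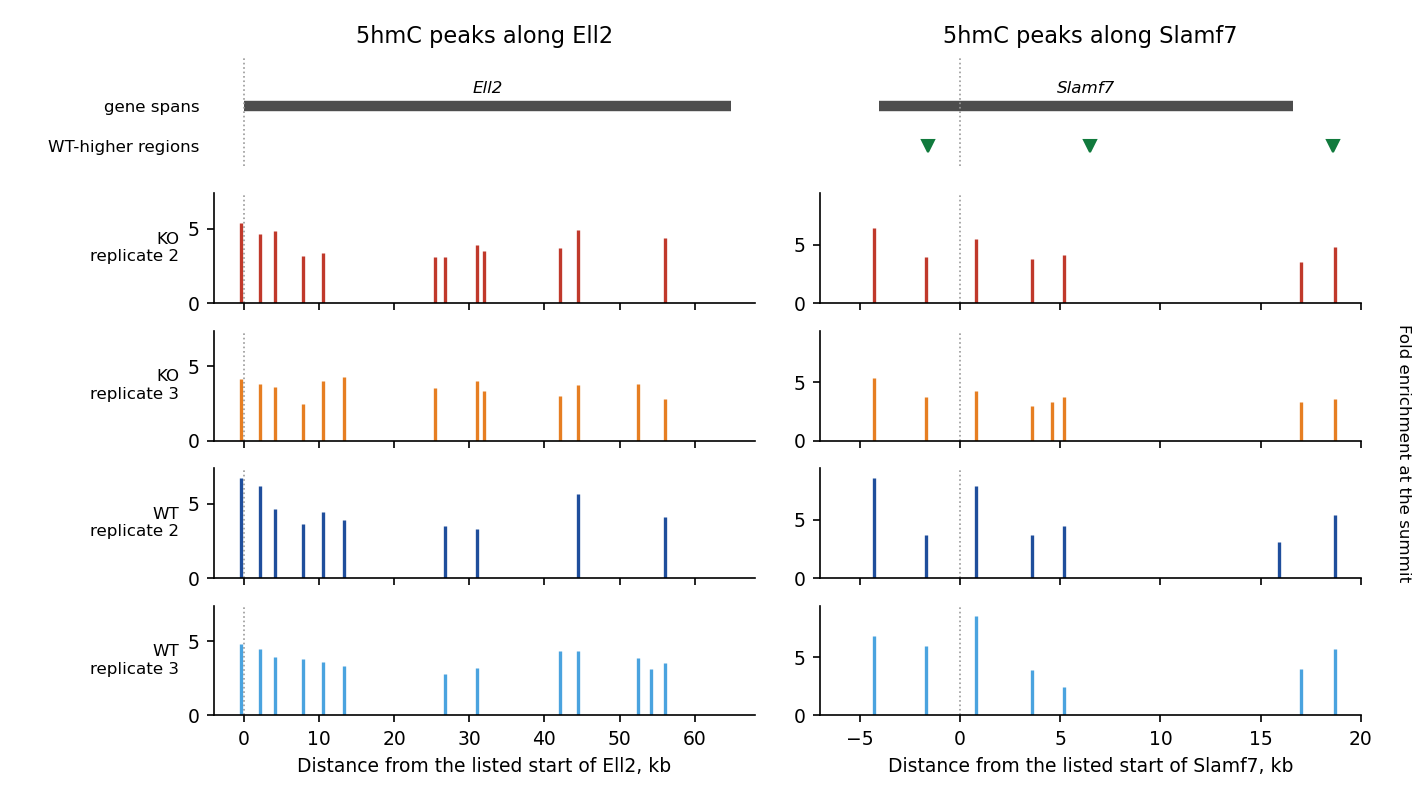
5hmC peaks along Ell2 (left) and Slamf7 (right) by distance from the listed start in kb, with 1 panel per library (bars: the authors' fold enrichment at the summit), gene spans and WT-higher regions (triangles) above. Ell2 has a bar at its start in every library and no triangle, and Slamf7 has 3 triangles, of which the one at 6.5 kb stands over no bar.

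The remaining 3 genes were nearly free of peaks. Sdc1, which encodes syndecan-1 (CD138), the usual surface marker of plasma cells, had 0 peaks in each of the 4 libraries along chr12:8771396-8793716 and 2 kb on either side. Its promoter holds 14 CpG sites, near the median of 13 over protein-coding promoters. Jchain, which encodes the joining chain of polymeric immunoglobulin, had 1 peak of 266 bases in KO replicate 3 (3.03-fold) and 1 of 328 bases in WT replicate 2 (3.31-fold) at another place of chr5:88519809-88527897, and none in the other libraries. Cd28, a costimulatory receptor best known from T cells and also found on plasma cells, had 1 peak, at chr1:60772252-60772684 near the end of the span chr1:60746388-60773359. All 4 libraries shared it, with folds of 7.41, 3.98, 6.76 and 5.99 over 427, 302, 364 and 382 bases. Its log2 change as a region was 0.03 ± 0.08 (SE, limma adjusted p = 1). None of these 3 genes held a WT-higher region.

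Genes that act against plasma cell fate, and further genes of the pathway, are given beside the 9 genes as counts, with no test of the difference. Among 8 such genes, 6 held WT-higher regions, 80 in the authors' deposited table: 33 in Bach2, 22 in Ets1, 17 in Pax5 and 6 in Irf8, all transcription factors of the B cell program, while Bcl6, the master regulator of the germinal center, had 0. They lay on 64 of 293 union regions (21.8%), beside 8.57% for the 9 genes and 7.26% for all gene windows. The 9 genes and this list were chosen with earlier results of these data known, so the shares are a description only. The window log2 change was below 0 for 5 of the 8 genes, with a median of -0.10 and 0 called. Bach2 had -0.19 ± 0.13, Ets1 -0.21 ± 0.18 and Pax5 -0.15 ± 0.14 (SE, limma adjusted p = 0.992 for each). Above 0 were Irf8 with 0.03 ± 0.16, Bcl6 with 0.03 ± 0.10 and Mitf with 0.15 ± 0.14 (SE, limma adjusted p = 0.999, 0.996 and 0.992). A further 17 genes were listed here as plasma cell effectors, a label that was not checked in these mouse cells. Of these 17 genes, 15 had a union region and 11 held WT-higher regions, 23 in the authors' deposited table, on 20 of 150 union regions (13.3%). Cd38, a surface enzyme, had 4, and Cxcr4, the bone marrow homing receptor, Atf6, a sensor of the unfolded protein response, Tnfrsf13b, the receptor TACI, and Creb3l2 had 3 each. Their median log2 change over 13 tested genes was 0.01, with 6 below 0 and 0 called.

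For marker genes of cell types the samples could hold, coverage is given as a description. Of 10 germinal center B cell markers, all had union regions, 5 held 10 WT-higher regions in the authors' deposited table on 9 of 88 union regions (10.2%), and the median log2 change was 0.07 with 3 of 10 below 0. Of 9 T cell markers, 8 had union regions and Cd8a had none. The summed scaled bases of the T cell list were 33901 and 32065 in KO and 33891 and 37602 in WT (unscaled 36210, 27256, 33802 and 40779), with 8 WT-higher regions in the authors' deposited table on 7 of 102 union regions (6.86%), and 4 of 7 tested genes were below 0 (median -0.05). Of 6 myeloid markers, 5 had union regions and Lyz2 had none. The summed scaled bases of the myeloid list were 20235 and 20012 in KO and 19840 and 19907 in WT (unscaled 21613, 17011, 19788 and 21589), with 9 WT-higher regions in the authors' deposited table on 7 of 52 union regions (13.5%), and 2 of 4 tested genes were below 0 (median -0.01). No gene of these 3 lists was called. The scaled sums of the T cell list overlapped between genotypes, while those of the myeloid list were slightly higher in both KO libraries than in both WT libraries and overlapped when unscaled. The part of other cell types in the values of the 9 genes was not tested.

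The genes whose scaled coverage over the 4 libraries was most like that of Prdm1, by the root mean square of the log2 differences, were Tnip3 (0.095), Fam160a2 (0.116) and Tgs1 (0.119). Tnip3 had 2715, 3261, 1639 and 1925 scaled bases. For Irf4 they were Pank4 (0.355), Cd9 (0.361) and Lancl3 (0.396), and each of these 3 had no covered base in KO replicate 3. With 4 libraries, such likeness is a description only.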

How the data were processed

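Reads were aligned with BWA 0.7.12-r1039 and peaks called with MACS2 2.1.0.20151222 on GRCm38.p3, as far as the submitters' processing notes name tools. The deposited peak lists give, per library, a fold enrichment (a ratio) and a −log10 p-value at each summit, made by the authors, and the authors' deposited tables of differential regions give a score whose scale, caller and source libraries are not given in the sources used here. The members and lists were chosen with earlier results of these data known. Peaks were merged across the 4 immunoprecipitated libraries, and bases under peaks were counted per gene window, flank and union region (RefSeq spans, 1 bp of overlap), scaled to the same sum per library, and compared as log2(bases + 200) with limma 3.58.1 in R 4.3.3 and Benjamini-Hochberg adjustment over all windows (mean of at least 500 bases) or regions (at least 100). The fit was run on simulated data with the same spread for every window, which the real windows do not have. That run checks the code and not the power or error rate in these data. Distances to a start are from region centres. In each window the differential region of the highest score and the union region of the highest fold were named, in the flanks the 3 of the highest score per side, in the 2 pathway lists (antagonists of plasma cell fate and plasma cell effectors) up to 4 genes by number of WT-higher regions (ties kept, Bcl6 added after its values were seen). Regions with peaks in 1 genotype only were named after their values were seen. The 3 marker lists cover germinal center B, T and myeloid cells. Summit pileups were recovered from fold and p-value within 0.001 of the deposited −log10 value. Depth in reads is unknown. No column of other samples was used. Alternatives were other pseudocounts, filters, scalings, windows and fits, and leaving out each library.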

Additional observations from a re-analysis of the deposited data

How the results depend on the processing

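No gene window passed an adjusted p of 0.05 under any of the 11 alternatives, with 346 to 875 windows under 0.05 without adjustment. For the 100 kb flanks the count of 0 moved to 88 (9 higher and 79 lower in KO) with a replicate block, and ranged from 0 to 39 when 1 library was left out (39 without KO replicate 2, 32 without WT replicate 3). For union regions it ranged from 0 to 18658 when 1 library was left out, the highest without KO replicate 2 (18361 higher and 297 lower in KO, the opposite balance to the flanks). Where 1 library was left out, the lone library of that genotype is assumed to vary like the others. Neither Prdm1 nor Irf4 flanks were among the calls: their lowest adjusted p over all alternatives were 0.957 and 0.106. The labels do not say whether the replicate numbers pair the samples. The differences between replicates 2 and 3 in KO and in WT correlated over 14001 genes with r = 0.0897, which cannot decide it. With the replicate block, the Irf4 flanks had an adjusted p of 0.271 and Prdm1 one of 0.834, and no call among the 9 genes changed.

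Signs turned for single genes. Counting only peaks of at least 5-fold enrichment gave log2 changes of -0.29 for Prdm1, 0.24 for Zbtb20 and -0.84 for Slamf7. Xbp1 had 0.34 with equal numbers of peaks and ranged from -0.27 to 0.02 when 1 library was left out, above 0 without WT replicate 3. Irf4 had -2.23 with a pseudocount of 50 bases and ranged from -2.91 to 0.29 when 1 library was left out, above 0 without KO replicate 3. The Prdm1 flanks had -0.10 without scaling and ranged from -0.02 to 0.08 when 1 library was left out, below 0 without WT replicate 3. Ell2 and the Irf4 flanks kept their sign in each alternative run, with Ell2 at 0.11 and Slamf7 at 0.02 without scaling. Raising the score to at least 5 left 4 of the 14 WT-higher regions, in 2 genes (3 in Zbtb20 and 1 in Slamf7). Restricting peaks to at least 5-fold left 24 regions with a peak in all 4 libraries in place of 64, and leaving out 1 library, an alternative chosen after seeing the data, gave 66 to 75 regions shared by the remaining 3. The causes of these changes were not tested. Irf4, Xbp1 and Ell2 had too few bases left for a test with peaks of at least 5-fold, and Xbp1 with the gene span only. At the most frequent background of each library the lowest pileup called was 22 to 26 reads, and the effect of depth on weaker sites was not tested.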
